A study of Mus musculus with 12 samples.

Results

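The genes described here encode the MCM helicase and the proteins that license DNA for replication. There were 10 of them (Mcm2, Mcm3, Mcm4, Mcm5, Mcm6, Mcm7, Mcm10, Cdc6, Cdt1 and Pcna), listed by name as related genes, with earlier results of these data known. They were found as all non-control spots with these gene symbols, which gave 11 of the 61307 probes on the array and 10 of its 50090 gene names. Cdc6 had 2 probes and each other gene had 1, and a gene is given by its brightest probe.

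In the study, resting B (RB) cells from the spleens of BALB/c mice, labelled female and 6 weeks old, were cultured for 4 h, and their total RNA was labelled with Cy3 and hybridised to one-colour arrays. There were 6 conditions with 2 arrays each: unstimulated cells, cells given the TLR-2 ligand Pam2CSK4 (spelled Pam2csk4 in the labels), cells given an antibody to CD86 or to CD40 (anti-CD86, anti-CD40), and cells given either antibody together with the ligand (TLR2.CD86 and TLR2.CD40). The comparisons ask whether a signal through the costimulatory molecules CD86 or CD40 adds to TLR-2 signaling in these cells. The methods describe selection of cells without CD43 and mice of either sex, and a legend of the study calls the data representative of biological replicates, whereas the labels do not say that the samples came from separate cultures or animals, so that the p-values measure the spread between these samples only. The isotype control was not analysed here.

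Before a cell copies its DNA, the origin recognition complex (ORC) with Cdc6 and Cdt1 loads the ring of MCM2 to MCM7 onto origins during G1. Mcm10 then helps to switch the loaded helicase on, and Pcna is the sliding clamp that holds DNA polymerases on the template. RB cells are in G0, and these genes are known targets of E2F transcription factors, which act late in G1 when such cells enter the cycle. RNA levels of these genes are therefore commonly read beside cell cycle entry, and the time point here is an early one.

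All 11 probes were well above background on all 12 arrays, and none was saturated. A level is the log2 processed intensity of the probe taken relative to the 75th percentile on its own array, so that 0 is that percentile and a difference of 1 is a doubling. Levels of different probes cannot be set against each other. There were 2 slides. The unstimulated and TLR2.CD40 conditions lay wholly on slide 1, which carried 8 arrays in all, and the other 4 conditions had 1 array on each slide. Between 46.6% and 60.6% of the spots of an array were well above background, and the number of arrays limits the precision. The highest share was that of the second anti-CD40 array. Its median signal of 51.2 was also the highest, against 17.3 to 33.5 on the other arrays. With slide as a term in the fit, all 10 genes were lower on slide 2 (by 0.09 to 0.42 in log2), and 8 passed the test for slide, against 57.2% of all probes in either direction. The median slide difference of all probes tested was -0.13, and Mcm2 (-0.09) and Cdt1 (-0.11) fell less than that. Slide 2 was also scanned in a separate run. Differences of the 10 genes from unstimulated cells were therefore tested for conditions alone and with slide as a further term, the slide fit, which compares conditions within slides.

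The labelled cell type was checked against fixed marker genes. All 8 B cell markers were well above background on all arrays. A summed level is the log2 of the sum of linear signals, so that the brightest probes weigh most in it. For the 6 B cell markers that were never saturated it lay between 7.85 and 8.28. Markers of other cells were also measured. Of the 10 myeloid markers 9 were above background on all arrays, S100a9 was saturated throughout, and the summed level of the other 9 was 8.24 on both unstimulated arrays and 7.26 to 7.84 on the 10 stimulated arrays. Of the 7 NK cell markers 6 were above background on all arrays, and their summed level was 4.48 and 4.50 in unstimulated cells and 3.73 to 4.28 after stimulation. The 10 T cell markers (9 on all arrays) summed to 4.89 and 4.92 in unstimulated cells and to 4.43 to 4.88 after stimulation. The 9 erythroid markers (8 on all arrays) summed to 6.53 and 6.54 in unstimulated cells. They summed to 6.00 and 6.32 with anti-CD86, 6.79 and 6.80 with TLR2.CD40, and 6.24 to 6.82 in the other stimulations. All 6 plasma cell markers were above background on all arrays and Igj was saturated throughout. The other 5 summed to 4.43 and 4.45 in unstimulated cells, 4.44 to 4.77 with Pam2CSK4, anti-CD86 and TLR2.CD86, 5.28 and 5.32 with anti-CD40, and 5.46 and 5.54 with TLR2.CD40. In this sum Irf4 (2.89 to 5.19 over the arrays) weighed most, followed by Xbp1 (2.41 to 3.22), while Prdm1 lay between -0.93 and -0.17. The myeloid, NK and T cell sums were thus lower on all stimulated arrays, and the plasma cell sum was highest in both conditions with anti-CD40, in which Mcm6 was called below. Their part in the results was not tested. In RNA of whole samples, fewer cells of a type and less RNA per cell cannot be told apart.

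Promoters were inspected because the genes are known as E2F targets. RefSeq windows of assembly GRCm38.p6, which run from 250 bases before to 50 bases after the transcription start, were matched by symbol for 9 of the 10 genes, with 2 windows for Mcm7. The E2F-type letters searched were TTTGGCGC, TTTCCCGC, TTTGCCGC and TTTCGCGC on both strands, and overlapping matches were counted. They occurred in the windows of 6 of the 9 genes (Mcm3, Mcm5, Mcm6, Mcm7, Cdc6 and Cdt1), against 2.26% of all 32851 windows. CCAAT occurred for 7 of the 9 (all but Cdc6 and Cdt1), against 37.4% of windows. The kappa B consensus of NF-kB, searched on both strands, occurred for 1 of the 9 (Mcm7), against 4.51% of windows. GC content was 48.7% to 66.7% in the windows of the 9 genes, and its median over all windows was 52.7%. The 180 bases before the start are printed 5′ to 3′ on the gene's strand for the 4 genes that hold E2F-type letters there, with these letters in capitals.
Mcm6, chr1:128359706-128359885, minus strand: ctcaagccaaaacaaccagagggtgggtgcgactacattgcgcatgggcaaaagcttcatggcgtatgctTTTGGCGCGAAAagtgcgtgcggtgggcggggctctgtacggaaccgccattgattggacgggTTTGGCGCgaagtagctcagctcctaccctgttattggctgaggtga
Mcm5, chr8:75109329-75109508, plus strand: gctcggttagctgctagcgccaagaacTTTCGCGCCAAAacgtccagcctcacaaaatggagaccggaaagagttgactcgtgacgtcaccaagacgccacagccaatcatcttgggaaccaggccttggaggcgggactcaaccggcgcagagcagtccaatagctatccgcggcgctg
Mcm7, chr5:138171884-138172063, minus strand: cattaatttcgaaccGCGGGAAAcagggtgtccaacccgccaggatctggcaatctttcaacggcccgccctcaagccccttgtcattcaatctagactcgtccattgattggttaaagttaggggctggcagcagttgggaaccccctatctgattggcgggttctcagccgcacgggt
Cdc6, chr11:98907971-98908150, plus strand: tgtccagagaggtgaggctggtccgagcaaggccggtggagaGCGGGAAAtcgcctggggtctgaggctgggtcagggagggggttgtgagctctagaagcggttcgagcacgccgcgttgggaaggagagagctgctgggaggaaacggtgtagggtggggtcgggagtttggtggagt
In Mcm5 and Mcm6, a pair of matches on opposite strands overlap. Such matches are letters in a window, and no binding was measured. Whether these letters relate to the RNA levels given below was not tested.

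**Figure D1:**
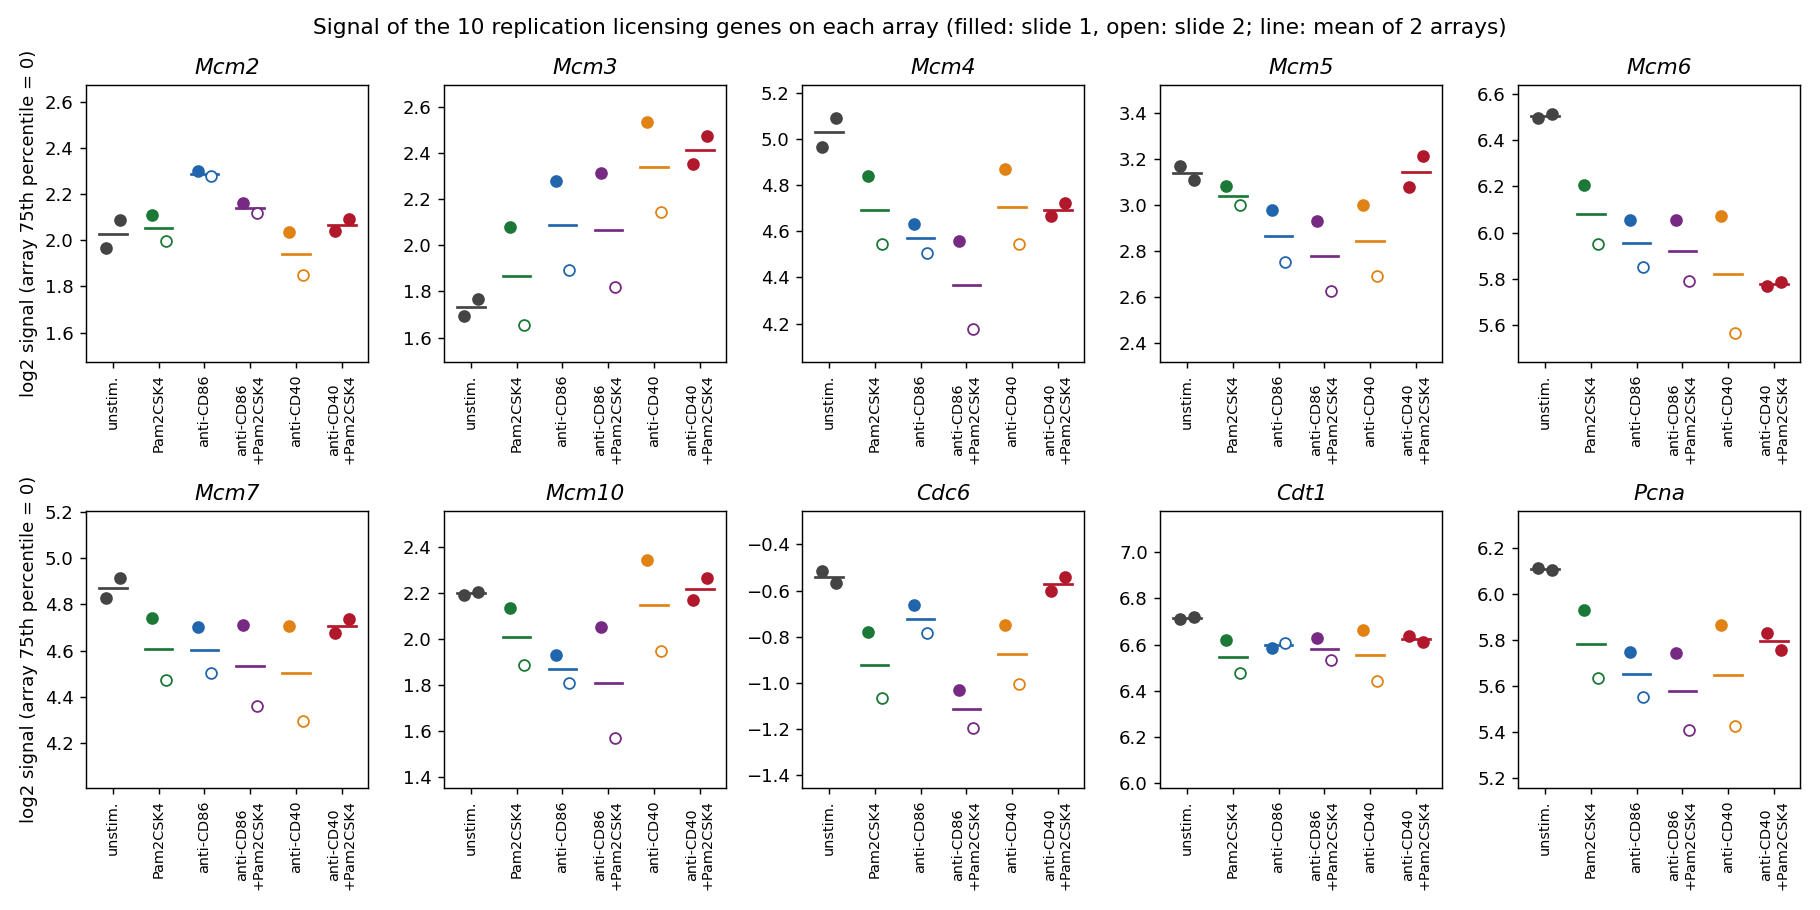
The log2 signal of each of the 10 genes (y axis, 75th percentile of the array at 0, each panel spanning the same range) is plotted for the 12 arrays by condition (x axis), with filled points for slide 1, open points for slide 2 and a line at the mean of 2 arrays. Mcm6 lay at 6.50 and 6.51 in unstimulated cells and between 5.57 and 6.21 in all stimulated samples, while Mcm3 lay at 1.69 and 1.77 in unstimulated cells and up to 2.54 after anti-CD40.

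Mcm6, a subunit of the helicase ring, was called lower in 2 of the comparisons with unstimulated cells, both with anti-CD40. Its level was 6.50 and 6.51 on the unstimulated arrays. It was 6.21 and 5.95 after Pam2CSK4, 6.06 and 5.85 after anti-CD86, and 6.05 and 5.79 after TLR2.CD86. It was 6.07 and 5.57 after anti-CD40, and 5.77 and 5.78 after TLR2.CD40. All 10 stimulated arrays lay below both unstimulated arrays, and neighbouring stimulations in the order of means overlapped. Against unstimulated cells Mcm6 fell by 0.73 on the log2 scale (SE 0.19, n = 2 against 2, limma adjusted p = 0.0318) with TLR2.CD40, the 1 of 10 genes called in this comparison, in which 18.2% of all probes passed. After anti-CD40 alone it fell by 0.69 (SE 0.19, limma adjusted p = 0.0433), again the 1 of 10 called, against 16.7% of probes. The differences of -0.43 with Pam2CSK4, -0.55 with anti-CD86 and -0.58 with TLR2.CD86 (limma adjusted p = 0.0816) did not pass. With slide in the fit the values were -0.40 for anti-CD86, -0.43 for TLR2.CD86, -0.53 for anti-CD40 and -0.73 for TLR2.CD40, and all 4 passed (adjusted p from 0.000575 to 0.0157), whereas Pam2CSK4 gave -0.27 (adjusted p = 0.0857). Within slide 1 the differences were -0.30, -0.45, -0.45, -0.43 and -0.73 in the order Pam2CSK4, anti-CD86, TLR2.CD86, anti-CD40 and TLR2.CD40. The TLR2.CD40 call was lost without either unstimulated array (adjusted p = 0.14 and 0.15) or either TLR2.CD40 array (0.138 and 0.137). The anti-CD40 call was lost without its second array, where the value was -0.43 (adjusted p = 0.194), without either unstimulated array (0.173 and 0.187), and without either array of TLR2.CD40 (0.0751), Pam2CSK4 (0.0532) or anti-CD86 (0.0608).

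Mcm3, another subunit of the ring, ran the other way. Its level was 1.69 and 1.77 in unstimulated cells. It was 2.08 and 1.65 after Pam2CSK4, 2.28 and 1.90 after anti-CD86, 2.31 and 1.82 after TLR2.CD86, 2.54 and 2.14 after anti-CD40, and 2.35 and 2.48 after TLR2.CD40. Except for the second Pam2CSK4 array, every stimulated array lay above both unstimulated arrays, and in each condition split over the slides the array on slide 2 was the lower. The differences of 0.61 (SE 0.23, adjusted p = 0.11) for anti-CD40 and 0.68 (SE 0.23, limma adjusted p = 0.0825) for TLR2.CD40 did not pass. Mcm3 rose in the slide fit in all 5 stimulations, by 0.35 with Pam2CSK4 (adjusted p = 0.0283), 0.57 with anti-CD86 (0.0032), 0.55 with TLR2.CD86 (0.00218), 0.82 with anti-CD40 (0.000429) and 0.68 with TLR2.CD40 (0.000326). Under median scaling the 5 differences were -0.06, 0.22, 0.05, 0.04 and 0.57, so that the direction with Pam2CSK4 turned. The Mcm3 probe is assigned a further transcript entry, which was not matched in the RefSeq table, and a signal from it cannot be told apart from that of Mcm3.

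The remaining subunits of the ring were Mcm2, Mcm4, Mcm5 and Mcm7. Mcm4 lay at 4.97 and 5.09 in unstimulated cells and at 4.84 and 4.54 after Pam2CSK4, 4.63 and 4.51 after anti-CD86, 4.56 and 4.18 after TLR2.CD86, 4.87 and 4.54 after anti-CD40, and 4.67 and 4.72 after TLR2.CD40. All stimulated arrays were thus lower, and the lowest was the TLR2.CD86 array of slide 2. The largest difference of Mcm4 was -0.66 (SE 0.18) with TLR2.CD86, which just missed the threshold (limma adjusted p = 0.0518). With slide in the fit Mcm4 fell by 0.52 with TLR2.CD86 (adjusted p = 0.00481), 0.33 with TLR2.CD40 (0.0131) and 0.32 with anti-CD86 (0.0318).

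Mcm7 lay at 4.83 and 4.92 in unstimulated cells and between 4.30 and 4.74 on all stimulated arrays, with differences from -0.17 to -0.37, of which none passed in either fit. Mcm5 lay at 3.17 and 3.11 in unstimulated cells, at 3.08 and 3.21 after TLR2.CD40, and between 2.63 and 3.08 in the other 4 stimulations, with differences of 0.01 for TLR2.CD40 and -0.10 to -0.36 for the rest, none of which passed. The TLR2.CD40 arrays of Mcm5 overlapped the unstimulated arrays, and its interval there ran from -0.36 to 0.37. Mcm2 lay at 1.97 and 2.09 in unstimulated cells and was highest after anti-CD86, at 2.30 and 2.28. Its anti-CD86 difference of 0.26 (SE 0.11) did not pass for conditions alone (limma adjusted p = 0.212) and was 0.31 in the slide fit (adjusted p = 0.0223). For the other 4 stimulations Mcm2 differed by -0.09 to 0.11, with intervals that included 0 in both fits.

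Among the loading factors, Cdc6, the ATPase that recruits the helicase to ORC, was the 1 member called between the 2 combinations for conditions alone. It lay at -0.51 and -0.57 in unstimulated cells. It was -0.78 and -1.06 after Pam2CSK4, -0.66 and -0.78 after anti-CD86, and -1.03 and -1.19 after TLR2.CD86. It was -0.75 and -1.003 after anti-CD40, and -0.60 and -0.54 after TLR2.CD40. TLR2.CD40 overlapped the unstimulated arrays, and all other stimulated arrays were lower than both of these groups. Cdc6 fell by 0.57 (SE 0.14, limma adjusted p = 0.0436) with TLR2.CD86 against unstimulated cells, the 1 of 10 genes called, against 10.6% of all probes. It was 0.54 higher (SE 0.14, limma adjusted p = 0.046) with TLR2.CD40 than with TLR2.CD86, again the 1 of 10 called, against 12.2% of probes. The slide fit gave -0.47 (adjusted p = 0.00305) and 0.44 (0.00321), and the differences within slide 1 were -0.49 and 0.46. The slide fit also placed Cdc6 lower with Pam2CSK4 (-0.28, adjusted p = 0.0447) and anti-CD40 (-0.23, 0.0315) than in unstimulated cells. The dimmer Cdc6 probe gave -0.42 (limma adjusted p = 0.0737) for TLR2.CD86 against unstimulated cells and 0.24 (adjusted p = 0.252) for TLR2.CD40 against TLR2.CD86, so that neither call was made by both probes.

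The TLR2.CD86 call of Cdc6 was lost without either unstimulated array (limma adjusted p = 0.212 and 0.187), either TLR2.CD86 array (0.0708 and 0.192), either anti-CD86 array (0.0668) or either TLR2.CD40 array (0.0815). The call of Cdc6 between the combinations was lost without either TLR2.CD40 array (adjusted p = 0.169 and 0.217), either TLR2.CD86 array (0.0779 and 0.202), either unstimulated array (0.0875) or either anti-CD86 array (0.0706). Cdt1, the partner of Cdc6 in loading, moved least in span. It lay at 6.71 and 6.72 in unstimulated cells and between 6.44 and 6.66 on the stimulated arrays, which were all lower. Its differences of -0.09 to -0.17 passed in neither fit.

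Mcm10, which acts after loading, lay at 2.19 and 2.20 in unstimulated cells, at 1.93 and 1.81 after anti-CD86, at 2.05 and 1.57 after TLR2.CD86, and at 2.17 and 2.27 after TLR2.CD40. After anti-CD40 it was 2.34 on slide 1 and 1.95 on slide 2, so that its arrays fell on both sides of the unstimulated arrays. After Pam2CSK4 it was 2.13 and 1.89. The differences of Mcm10 ran from -0.39 (TLR2.CD86) to 0.02 (TLR2.CD40), and none passed in either fit. Pcna, the clamp, lay at 6.11 on both unstimulated arrays. It was 5.93 and 5.64 after Pam2CSK4, 5.75 and 5.55 after anti-CD86, 5.75 and 5.41 after TLR2.CD86, 5.87 and 5.43 after anti-CD40, and 5.83 and 5.76 after TLR2.CD40. All stimulated arrays were lower. The largest difference of Pcna was -0.53 (SE 0.19, limma adjusted p = 0.102) with TLR2.CD86. With slide in the fit Pcna fell by 0.37 with TLR2.CD86 (adjusted p = 0.00912), 0.32 with TLR2.CD40 (0.00951), 0.30 with anti-CD40 (0.0172) and 0.30 with anti-CD86 (0.0241).

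**Figure D2:**
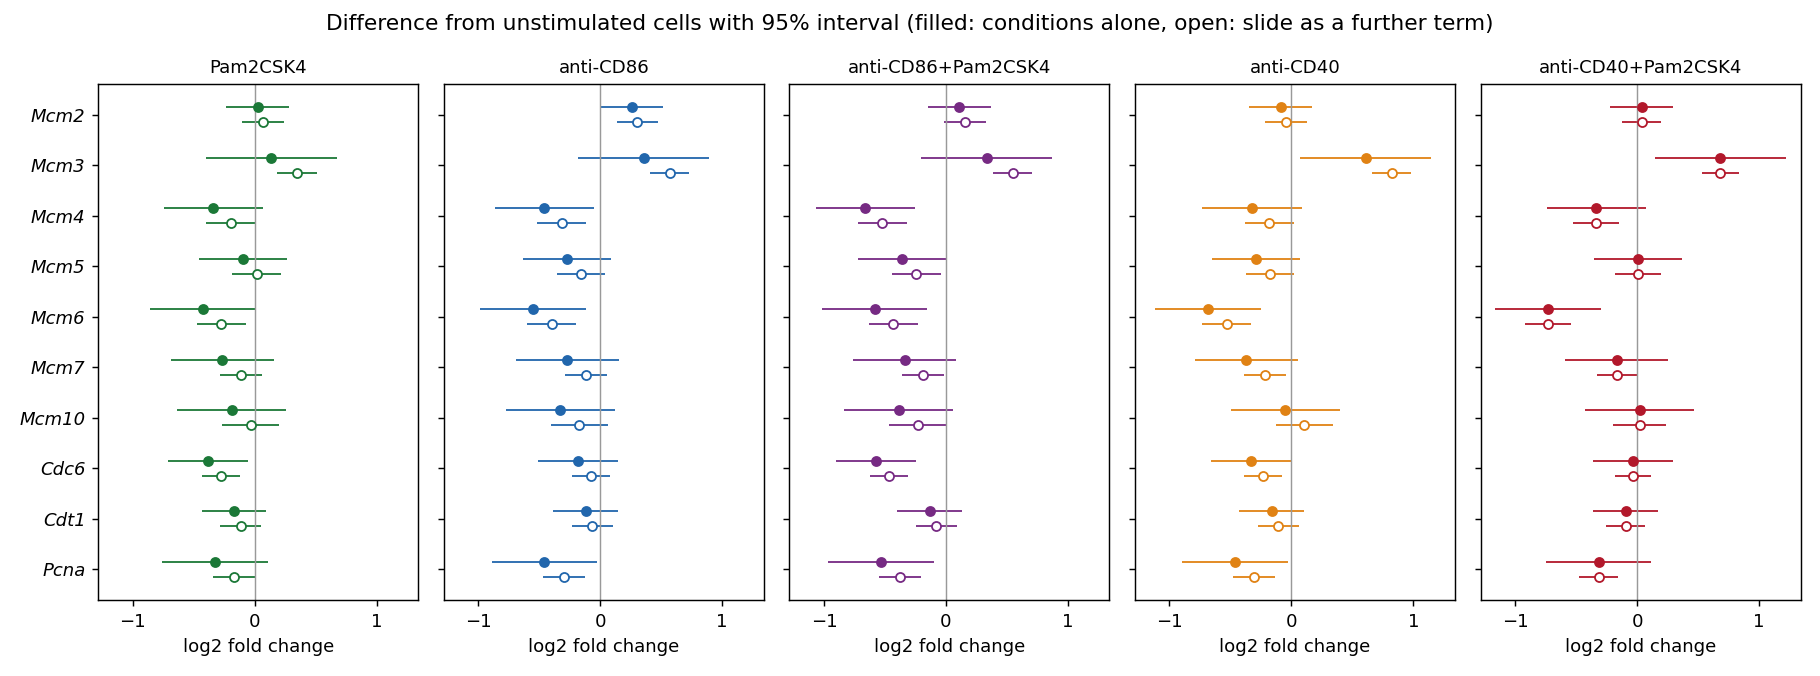
Log2 fold change against unstimulated cells (x axis) of the 10 genes (y axis) in the 5 stimulations, as points with 95% intervals, filled for conditions alone and open with slide as a further term. The filled intervals of Mcm6 excluded 0 in 4 of the 5 panels and the open intervals of Mcm3 lay above 0 in all 5, while Mcm10 and Cdt1 included 0 throughout.

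Over the 10 genes, the 5 comparisons share the unstimulated arrays and are given side by side. For conditions alone, none was called with Pam2CSK4 (0.136% of all probes) or with anti-CD86 (2.14% of probes). With Pam2CSK4, 1 gene had an unadjusted limma p under 0.05, as had 4966 of the 31601 probes. With anti-CD86, 4 genes and 7321 probes had. The median log2 difference of the 10 genes was -0.23 with Pam2CSK4 (all probes -0.07), -0.27 with anti-CD86 (-0.05), -0.37 with TLR2.CD86 (-0.03), -0.31 with anti-CD40 (-0.01) and -0.06 with TLR2.CD40 (0.01). In the slide fit these medians were -0.11 (all probes -0.04), -0.14 (-0.05), -0.24 (-0.01), -0.18 (0.004) and -0.06 (0.01) in the same order. The genes called in the slide fit were 2 with Pam2CSK4 (10.8% of probes), 5 with anti-CD86 (28.3%), 5 with TLR2.CD86 (34.9%), 4 with anti-CD40 (37.1%) and 4 with TLR2.CD40 (47.4%). Of those called there, only Mcm2 and Mcm3 were higher than in unstimulated cells.

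The 4 single calls for conditions alone, those of Mcm6 with anti-CD40 and TLR2.CD40 and of Cdc6 with TLR2.CD86 and between the combinations, were all lost under median scaling and without the filter on dim probes, and both Cdc6 calls were lost under quantile scaling. In fits of only the 2 groups compared, the call of Mcm6 with TLR2.CD40 was kept, where 40.3% of all probes were called. The other 3 were lost, where 0% (TLR2.CD86 and anti-CD40) and 1.18% (between the combinations) of probes were called. The median absolute log2 difference between the 2 arrays of a condition was 0.09 for unstimulated cells and 0.11 for TLR2.CD40 over all probes tested. It was 0.22 to 0.33 in the other conditions, which were split over the slides. Over all alternatives that gave a test, the limma adjusted p ran from 0.00368 to 0.194 for Mcm6 with anti-CD40, from 0.000575 to 0.689 for Mcm6 with TLR2.CD40, from 0.00305 to 0.551 for Cdc6 with TLR2.CD86 and from 0.00321 to 0.77 for Cdc6 between the combinations. Their log2 differences kept their sign and ran from -0.43 to -1.25 for Mcm6 with anti-CD40, from -0.72 to -0.84 for Mcm6 with TLR2.CD40, from -0.42 to -0.86 for Cdc6 with TLR2.CD86 and from 0.42 to 0.72 for Cdc6 between the combinations.

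Mcm4, Mcm6, Mcm7, Cdt1 and Pcna were lower on all 10 stimulated arrays than on both unstimulated arrays, 5 of 10 genes against 16.6% of probes. The same 5 genes were lower on all 6 stimulated arrays of slide 1, against 19% of probes. Mcm3 was the 1 gene higher on all 6 of them, against 11.5% of probes, and no gene was higher on all 10, against 5.78%. By condition, 8 of the 10 genes lay wholly below the unstimulated arrays with Pam2CSK4 (37.7% of probes), 8 with anti-CD86 (37.1%), 8 with TLR2.CD86 (36.4%), 7 with anti-CD40 (35.6%) and 5 with TLR2.CD40 (37.5%). Wholly above them lay 0 genes with Pam2CSK4 (19.9% of probes), 2 with anti-CD86 (25.3%), 2 with TLR2.CD86 (27.5%), 1 with anti-CD40 (26.6%) and 1 with TLR2.CD40 (38.5%), which were Mcm3 and, in the conditions with anti-CD86, also Mcm2. The unstimulated arrays were both on slide 1, and the genes were lower on slide 2 in general, so that the counts over slide 1 are the ones within a slide. Across the test over any of the 6 conditions, 0 of 10 genes passed for conditions alone (20.1% of probes), and 0 passed the one-way test of the methods without moderation (18.2% of probes). For conditions alone, 2 genes and 11966 of the 31601 probes had an unadjusted limma p under 0.05. With slide as a term 6 of 10 passed (59.9% of probes).

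Beside the call of Cdc6 between the combinations, comparisons among stimulated cells gave few calls. TLR2.CD86 differed from Pam2CSK4 in none (0.0633% of probes) and from anti-CD86 in none (0.225% of probes). Against Pam2CSK4, no gene had an unadjusted limma p under 0.05 (3264 of the 31601 probes had). Against anti-CD86, 1 gene and 2786 probes had. The intervals for TLR2.CD86 against Pam2CSK4 reached -0.73 for Mcm4 and 0.74 for Mcm3, so that differences of that size were not excluded by these arrays. In the slide fit Mcm4 was lower with TLR2.CD86 than with Pam2CSK4 (-0.32, 95% interval -0.51 to -0.14, adjusted p = 0.0482), the 1 gene called against 10.7% of probes, and its differences were -0.28 on slide 1 and -0.36 on slide 2. Cdc6 was lower with TLR2.CD86 than with anti-CD86 (-0.39, adjusted p = 0.0219), the 1 gene called against 7.53% of probes, with -0.37 on slide 1 and -0.41 on slide 2. The interaction of CD86 and TLR-2, which is the log2 effect of both signals minus the sum of the single effects, was called for no gene (0.019% of probes), nor in the slide fit (0.234% of probes). For it, no gene had an unadjusted limma p under 0.05 for conditions alone (1356 of the 31601 probes had). In the slide fit, 1 gene and 5130 probes had.

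TLR2.CD40 differed from Pam2CSK4 in none of the 10 (9.9% of probes) and from anti-CD40 in none (2.9% of probes). Against Pam2CSK4, 2 genes had an unadjusted limma p under 0.05, as had 8458 of the 31601 probes. Against anti-CD40, no gene had, while 6223 probes had. Against Pam2CSK4, the slide fit placed Cdc6 higher by 0.25 (adjusted p = 0.0305), Mcm3 higher by 0.33 (0.0117) and Mcm6 at -0.46 (0.00808), 3 genes against 31.4% of probes. The slide fit called none against anti-CD40 (15% of probes), where 1 gene and 10397 of the 31601 probes had an unadjusted limma p under 0.05. Against TLR2.CD86 it called Mcm6 (-0.30, adjusted p = 0.0335) beside Cdc6, 2 genes against 34.5% of probes. The interaction of CD40 and TLR-2 was called for none of the genes (1.15% of probes). For it, 1 gene and 6084 of the 31601 probes had an unadjusted limma p under 0.05. In the slide fit this interaction was 0.48 for Cdc6 (adjusted p = 0.0356) and -0.49 for Mcm3 (0.0373), 2 genes against 8.4% of probes. For conditions alone the interaction was 0.68 for Cdc6 (limma adjusted p = 0.161) and -0.06 for Mcm3 (adjusted p = 0.911), and the dimmer Cdc6 probe gave 0.29 (adjusted p = 0.349).

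The other genes of the pathway were taken from 8 lists of 89 genes, all on the array, of which 86 could be tested. For conditions alone, 0 were called with Pam2CSK4 (0.038% of all probes lower, 0.0981% higher) and 3 were lower with anti-CD86 (1.19% of probes lower, 0.946% higher). With Pam2CSK4, 18 of the 86 had an unadjusted limma p under 0.05, as had 4966 of the 31601 probes. With TLR2.CD86, 26 were lower and 0 higher (7.24% and 3.39% of probes). With anti-CD40, 29 were lower and 2 higher (10.6% and 6.15%), and with TLR2.CD40, 18 were lower and 3 higher (9.65% and 8.52%). The median log2 difference of the 86 genes was -0.26, -0.32, -0.49, -0.47 and -0.30 in that order of stimulations. In the slide fit it was -0.16, -0.23, -0.37, -0.37 and -0.30. The slide fit called 12 lower and 1 higher with Pam2CSK4 (6.15% and 4.66% of probes), and 34 lower and 2 higher with anti-CD86 (15.4% and 12.9%). It called 47 lower and 1 higher with TLR2.CD86 (20.4% and 14.5%), 49 lower and 5 higher with anti-CD40 (21.4% and 15.7%), and 44 lower and 6 higher with TLR2.CD40 (23.7% and 23.7%). Calls of the list genes were counted in these fits only. Over the whole array, median scaling called 49 of 31601 probes lower with TLR2.CD86, 220 with anti-CD40 and 223 with TLR2.CD40. Without the filter on dim probes, 11, 435 and 1168 of 61207 probes were called lower in the same order. The counts by list and the sizes of named list genes below are for conditions alone unless the slide fit is named. Except for TLR2.CD40, these sizes set arrays of both slides against unstimulated arrays of slide 1.

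None of the 6 ORC subunits, to which Cdc6 binds, was called by limma in any of the 5 comparisons for conditions alone. At most 2 had an unadjusted limma p under 0.05, with TLR2.CD86, where 9618 of the 31601 probes had. The slide fit called 2 lower with TLR2.CD86. Of the 7 licensing regulators and MCM relatives tested, Dtl, which directs the destruction of Cdt1, fell by 0.81 with TLR2.CD86, 0.81 with anti-CD40 and 0.88 with TLR2.CD40. Dbf4 and Cdc7, the kinase pair that fires licensed origins, were called lower in 2 comparisons and in 1. Dbf4 fell by 0.64 with TLR2.CD86 and 0.47 with TLR2.CD40, and Cdc7 by 0.63 with TLR2.CD40. Of 11 firing factors tested, 3 were lower with TLR2.CD86, 4 with anti-CD40 and none with TLR2.CD40. With TLR2.CD40, 6 had an unadjusted limma p under 0.05, as had 10721 of the 31601 probes. The slide fit called 7 lower there (23.7% of probes). Gins3, a subunit of the GINS complex that joins the helicase, fell by 0.69 with TLR2.CD86 and 0.74 with anti-CD40.

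Of the 14 clamp loaders and PCNA partners, 8 were lower with TLR2.CD86, 8 with anti-CD40 and 4 with TLR2.CD40. Rfc5, a clamp loader subunit, fell by 0.94 with TLR2.CD86 and with anti-CD40. Dscc1, of an alternative clamp loader, fell by 1.05 with TLR2.CD86. Fen1, the flap nuclease of lagging strand synthesis, ran against its list: it rose by 1.19 with anti-CD40 and 1.32 with TLR2.CD40 (limma adjusted p = 0.00566 and 0.00191), and was 0.23 to 0.31 higher, not called, in the other stimulations. Of the 15 polymerase, primase and RPA genes, 3 were lower with TLR2.CD86, 4 with anti-CD40 and 3 with TLR2.CD40, among them Pola1, the catalytic subunit of polymerase alpha, which fell by 0.84 with TLR2.CD86 and 1.00 with TLR2.CD40.

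Of the 8 genes of nucleotide supply, 3 were lower with TLR2.CD86, 2 with anti-CD40 and 1 with TLR2.CD40. Tyms, which makes thymidylate, fell by 1.03, 0.76 and 0.76 in these and by 0.78 with anti-CD86, while Dctpp1, a nucleotide pyrophosphatase, rose by 0.89 with TLR2.CD40. Of the 13 E2F and pocket protein genes, 2, 3 and 3 were lower in the same order. E2f8, a repressor of the E2F family, fell by 1.04 with TLR2.CD86, 0.67 with anti-CD40 and 0.54 with anti-CD86. Of the 12 G2 and mitosis markers tested, 5, 7 and 4 were lower. Ccna2, cyclin A2, fell by 0.97 with TLR2.CD86. Aurkb, a mitotic kinase, fell by 1.25 with anti-CD40 and fell by 1.55 with TLR2.CD40. Birc5 (survivin), its partner in the chromosomal passenger complex, rose by 0.88 and 1.01 in the same comparisons.

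**Figure D3:**
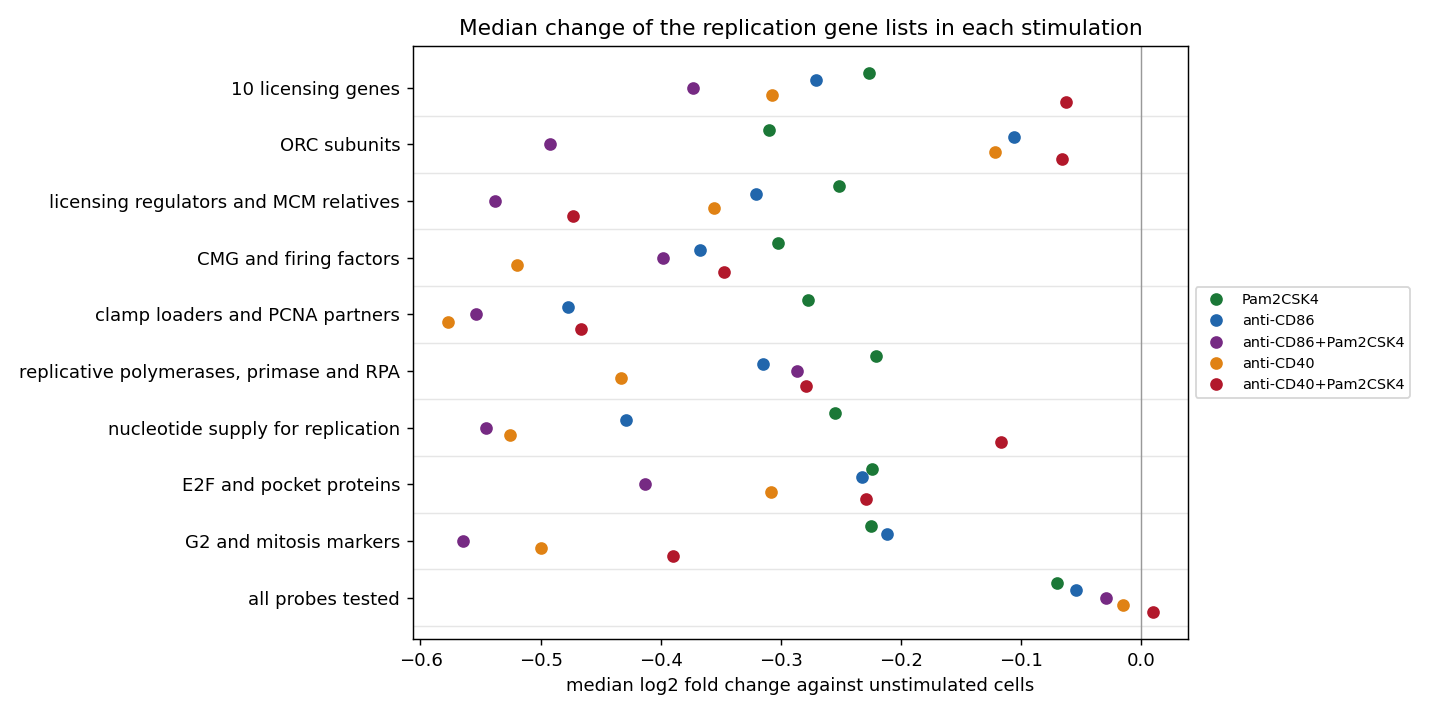
Median log2 fold change against unstimulated cells (x axis) of the 10 licensing genes, of 8 lists of related genes and of all probes tested (y axis), with a point for each of the 5 stimulations for conditions alone. The median of the 10 genes ran from -0.37 with TLR2.CD86 to -0.06 with TLR2.CD40, and the median of all probes from -0.07 to 0.01.

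How the 10 genes varied with each other was described by the correlation of each with the mean of the other 9 over the 12 arrays, which share slides and conditions. Pearson's r was 0.96 for Mcm7, 0.91 for Pcna and 0.81 to 0.87 for Mcm4, Mcm5, Mcm10, Cdc6 and Cdt1. It was 0.59 for Mcm6, 0.09 for Mcm3 and 0.02 for Mcm2. Over the 8 arrays of slide 1, r was 0.93 for Mcm4 and 0.73 to 0.76 for Mcm7, Cdt1 and Pcna. It was lower for Mcm5 (0.51), Mcm10 (0.46), Cdc6 (0.45) and Mcm6 (0.24), and it was -0.80 for Mcm3 and -0.66 for Mcm2. Among 12649 genes, those whose levels ran closest to the mean of the 10 were Ccdc97 (r = 0.99), Nup85 (0.99), Rapgef3 (0.98), Cd6 (0.98) and Usp38 (0.98) over the 12 arrays, and their r over slide 1 lay between 0.81 and 0.97.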

How the data were processed

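Total RNA of RB cells was measured on 12 arrays, 2 for each of 6 conditions, grouped by the treatment in the labels. The authors labelled RNA with Cy3, and images were read with Agilent Feature Extraction 10.5.1.1 with the mm9 design annotation. In the deposited scanner files each spot has a processed signal intensity, from which background and a spatial trend were removed by that program. A second deposited table holds log2 values, and each column of it equalled the log2 processed intensity less 1 constant for each array, which lay near the 75th percentile. The methods name GeneSpring and a one-way test and do not state the normalization.

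Levels were log2 processed intensities with the 75th percentile of each array set to 0. Control spots and 5 to 35 outlier spots of each array were dropped, and repeated spots of a probe were averaged. A probe was kept if in some condition both of its arrays were well above background (31669 probes). Of these, 68 lacked a value on some array and 31601 were tested. limma 3.58.1 in R 4.3.3 fitted 1 coefficient per condition over all 12 arrays, and p-values were adjusted by Benjamini-Hochberg over all probes tested, with a threshold of 0.05. The fit was tested on simulated data that held no slide difference, so that this test does not cover the effect of slide. Slide as a fixed term, the replicate number as a block, slide 1 only, median and quantile scaling, normexp background correction (offset 50), the deposited log2 table, no filter on dim probes, fits of only the groups compared, the median over both Cdc6 probes and leaving out each array were the alternatives. The 10 genes were all named. From each pathway list, at most 3 genes with the largest change among those called were eligible for naming in a comparison. The genes, lists and tests were chosen with earlier results of these data known. Older symbols were matched by alias. Sequences came from RefSeq (GRCm38.p6), which was used for names and promoters only. Python 3.11.15 was used with pandas 2.3.3, numpy 2.4.6 and, for plots, matplotlib 3.10.9.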

Additional observations from a re-analysis of the deposited data

How the results depend on the processing

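With 2 arrays per group and unstimulated cells on slide 1 only, the calls and sizes of the 10 genes depended on single arrays and on the setting. Median scaling shifted the median of all probes against unstimulated cells by -0.19 (Pam2CSK4), -0.14 (anti-CD86), -0.29 (TLR2.CD86), -0.57 (anti-CD40) and -0.11 (TLR2.CD40). All 11 probes were well above background on all arrays. Probes called for TLR2.CD86 against unstimulated cells numbered 3359, and they numbered 11034 in the slide fit, 132 under median scaling and 26 without the filter on dim probes. The causes of these changes were not tested.

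The number of the 10 genes called was 1 for TLR2.CD86, 1 for anti-CD40 and 1 for TLR2.CD40 against unstimulated cells, 1 for TLR2.CD40 against TLR2.CD86, and 0 for each other comparison. Median scaling (0.418% to 1.47% of all probes called) and the absence of the filter (0.0425% to 4.02%) each gave 0 in these 4. The share of all probes called is given in parentheses. Quantile scaling gave 2 for anti-CD40 (20.3%), 2 for TLR2.CD40 (20.2%), 0 between the combinations (14.1%) and 1 over any of the 6 conditions (24%). Normexp gave 3 for TLR2.CD86 (13.9%) and 2 for TLR2.CD40 (20%). The slide fit, whose shares stand beside its calls above, gave 2 for Pam2CSK4, 5 for anti-CD86, 5 for TLR2.CD86, 4 for anti-CD40, 4 for TLR2.CD40, 1 and 1 for TLR2.CD86 against Pam2CSK4 and anti-CD86, 3 for TLR2.CD40 against Pam2CSK4, 2 between the combinations, 2 for the CD40 interaction and 6 over any condition. Slide 1 alone gave 4 for TLR2.CD40 against unstimulated cells (40.3%), with 2 arrays in each. The other stimulations had 1 array each on slide 1, so that no counts of calls are given for them there. Fits of only the groups compared gave 0 for TLR2.CD86 (0%), 0 for anti-CD40 (0%), 4 for TLR2.CD40 (40.3%) and 0 between the combinations (1.18%). The deposited log2 table changed no such count. Leaving out 1 array gave 0 to 3 for TLR2.CD86, 0 to 2 for anti-CD40, 0 to 1 for TLR2.CD40, 0 to 1 between the combinations, 0 to 1 over any condition and 0 to 0 elsewhere.

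Same-numbered samples of 2 conditions deviated together with r from -0.11 to 0.67, and r was over 0.1 only among the 4 conditions split over the slides, so the numbers were not taken as pairs. The replicate block gave 1 for anti-CD86 (12.6%), 4 for TLR2.CD86 (24.5%), 3 for anti-CD40 (29.8%), 2 for TLR2.CD40 (27%) and 2 over any condition (37.3%).

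Among differences from unstimulated cells, those that changed sign were as follows. Of them only Mcm3 with Pam2CSK4 was called in any setting, at 0.35 in the slide fit (limma adjusted p = 0.0283). Median scaling gave -0.17 for Mcm2 and -0.058 for Mcm3 with Pam2CSK4, -0.18 for Mcm2 with TLR2.CD86, and -0.072 for Mcm2, -0.10 for Mcm5 and -0.088 for Mcm10 with TLR2.CD40. Quantile scaling gave 0.053 and 0.0036 for Cdt1 with anti-CD86 and TLR2.CD86, and 0.017 for Mcm2 and 0.053 for Mcm10 with anti-CD40. Normexp gave 0.011 for Mcm10 with anti-CD40, and -0.0051 for Mcm2, -0.023 for Mcm5 and -0.032 for Mcm10 with TLR2.CD40. The slide fit gave 0.017 for Mcm5 with Pam2CSK4 and 0.10 for Mcm10 with anti-CD40, and slide 1 alone gave 0.15 for Mcm10 and 0.0050 for Mcm2 with anti-CD40. Leaving out 1 array, the ranges were -0.037 to 0.085 for Mcm2 and -0.076 to 0.35 for Mcm3 with Pam2CSK4, -0.18 to 0.0050 for Mcm2 and -0.25 to 0.15 for Mcm10 with anti-CD40, and -0.024 to 0.098 for Mcm2, -0.061 to 0.075 for Mcm5 and -0.027 to 0.068 for Mcm10 with TLR2.CD40. Among the other comparisons, the slide fit turned the sign of 5 genes for TLR2.CD40 against Pam2CSK4 (Mcm2, Mcm4, Mcm5, Mcm7 and Pcna), 3 for TLR2.CD40 against anti-CD40 (Mcm3, Mcm10 and Pcna), 1 between the combinations (Cdt1), 3 for the CD86 interaction (Mcm4, Mcm5 and Mcm10) and 1 for the CD40 interaction (Mcm10), of which none was called in either fit.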
